A study of Homo sapiens with 8 samples.

Results

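The genes examined here encode the collagens, the laminins, the integrins and fibronectin, which together form much of the extracellular matrix and its main receptors. They were chosen by gene symbol alone, as every COL, LAMA, LAMB, LAMC, ITGA and ITGB chain gene in the count table plus FN1. This rule found 83 of 26475 genes: 44 collagen chains, 12 laminin chains, 18 integrin alpha chains, 8 integrin beta chains and fibronectin. The rule uses no measured value, although the list was proposed with earlier results of these data known.

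All 8 RNA-seq libraries came from BT474, an established human breast cancer line with amplified ERBB2 and a luminal character. The labels give a genotype of NPY1R high for 4 libraries and of NPY1R low for the other 4, NPY1R being the gene for neuropeptide Y receptor Y1. They do not say how high and low cells were obtained, whether either group is a clone, or which passage was used, and they name no drug, although the series title places the samples in a study of persistence under lapatinib. Cells of both groups were plated below confluence in 6-well plates at about 500000 cells per well, and 200 ng of RNA went into a stranded total RNA kit. Nothing states that the replicates were separate cultures, so the p-values measure the spread between these libraries, which may be technical.

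Collagens are trimers of chains that share a triple helix. The fibrillar types form fibres, type IV forms the network of basement membranes, and the fibril-associated (FACIT) types sit on the surface of fibres. Laminins are cross-shaped trimers of an alpha, a beta and a gamma chain and are the main cell-binding proteins of basement membranes. Integrins are alpha-beta pairs that bind these proteins outside the cell and link to actin or keratin filaments inside it, and in breast epithelium the laminin receptors hold cells to the basement membrane.

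The libraries held 18025648 to 30609791 estimated counts, and 17023 to 17408 genes had a count. Levels are given as CPM, the counts divided by the TMM-scaled library size in units of 1e6 counts. NPY1R itself measured 699, 728, 1049 and 950 CPM in NPY1R high replicates 1 to 4, and 90.8, 94.9, 92.8 and 104 CPM in NPY1R low replicates 1 to 4, so the labels and the counts of this gene point the same way. Luminal epithelial markers summed to 4409 to 5045 CPM in NPY1R high and 4474 to 5288 CPM in NPY1R low, with KRT8 at 1511 and 1428 CPM on average, and of 8 markers ESR1 and GATA3 were called higher and EPCAM and FOXA1 lower. Of 7 fibroblast markers, DCN, PDGFRB, THY1 and POSTN had 0 counts in every library, and the list summed to at most 0.186 CPM in any library. Endothelial markers summed to 9.22 to 15.6 CPM in NPY1R high and 13.5 to 18.2 CPM in NPY1R low, nearly all of it VWF, with TEK at 0 throughout and PECAM1 averaging 0.00859 and 0.107 CPM. Leukocyte markers summed to 1.43 to 2.27 and 1.69 to 2.77 CPM (CD3E and MS4A1 at 0), and basal or myoepithelial markers to 6.84 to 10.7 and 7.01 to 9.66 CPM, mostly TP63, with KRT14 and CNN1 at 0. NPY1R high replicate 3 and NPY1R low replicate 4 held less of the GC-rich transcripts than the other libraries of their group, which is followed up for the members at the end.

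The comparison asks whether NPY1R high and NPY1R low cells differ in the expression of matrix and matrix receptor genes. Some did, with 17.4% of the tested members called in either direction by the test described next. A member that was not called is not thereby shown to be equal in the 2 groups. Of the 83 members, 46 had enough counts to be tested, with 5 called higher and 3 called lower in NPY1R high at a Benjamini-Hochberg adjusted p under 0.05 by edgeR's quasi-likelihood test, adjusted over all 14008 tested genes. COL12A1, COL4A5, LAMB1, ITGA6 and COL2A1 rose. ITGB6, COL5A2 and ITGA5 fell. As a share of the tested members, 10.9% were higher and 6.52% lower, against 5.78% higher and 7.81% lower among all tested genes. The shares of all genes, 810 higher and 1094 lower, came with NPY1R low replicate 4 as TMM reference. With any other library as reference, 869 to 995 genes were higher and 865 to 892 lower, while the members stayed at 5 and 3. The median log2 change (NPY1R high minus NPY1R low) was 0.05 over the 46 tested members and -0.03 over all tested genes, while the median absolute change was 0.36 and 0.14. It was 0.49 over the tested collagens and 0.15 over the tested integrins. These medians were not matched for level, and members with few counts tended to have wider SEs. The 4 libraries of each group did not overlap for 12 of the 46 members (26.1%), 8 higher and 4 lower, against 20.2% of all tested genes. These counts describe the list and were not tested against other genes. In bulk RNA, fewer cells expressing a gene and less RNA per cell cannot be told apart.

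**Figure D1:**
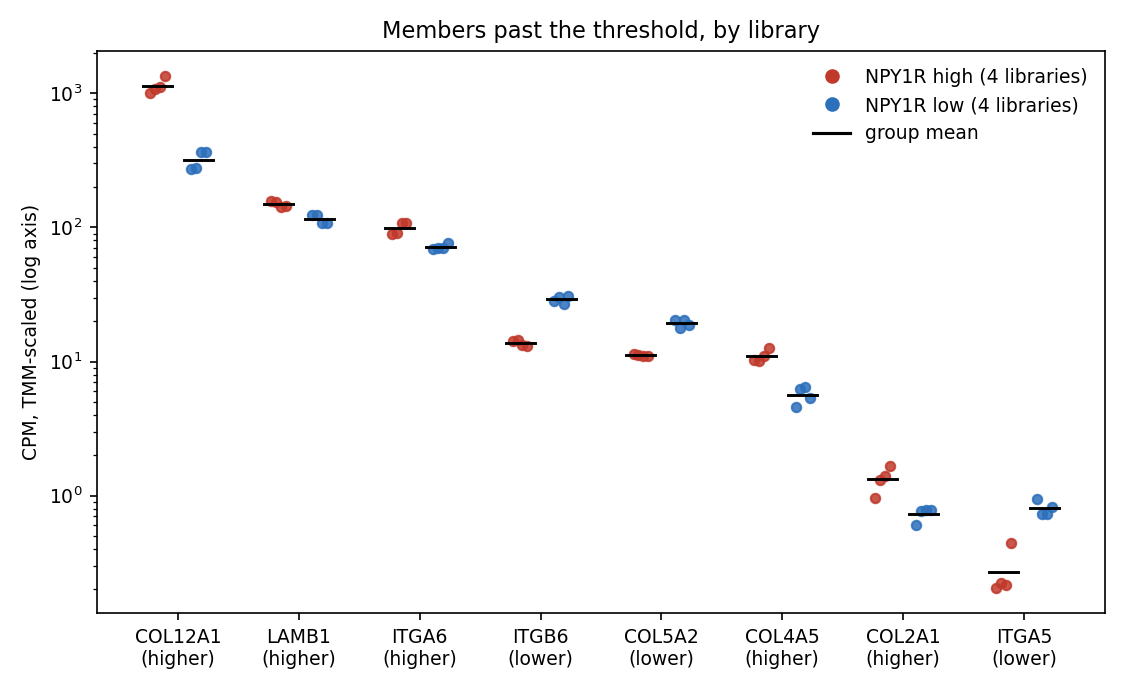
CPM on a log axis of the 8 members past the threshold in each library, with NPY1R high in red, NPY1R low in blue and the group mean as a bar. COL12A1 lies between 1006 and 1339 CPM in the 4 NPY1R high libraries and between 275 and 366 CPM in the 4 NPY1R low libraries, and no member has overlapping groups.

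The other 37 members did not pass the filter on low counts, and none of them had more than 17 counts in any library. Among them 8 had 0 counts in all 8 libraries: COL1A2, COL6A5, COL9A1, COL11A1, ITGA4, ITGAD, ITGAX and LAMA1. COL3A1, a fibrillar chain often found in the same fibres as type I collagen, had at most 3 counts. Members that passed the filter through 1 group alone had to differ, so the counts above hold for the tested members and not for the whole list.

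COL12A1 carried the largest rise. It encodes the chain of collagen XII, a homotrimeric FACIT collagen that binds to type I collagen fibres, and lies on chromosome 6 from 75084326 to 75206051 on the minus strand (GRCh38, GENCODE). NPY1R high replicates 1 to 4 measured 1006, 1079, 1110 and 1339 CPM, and NPY1R low replicates 1 to 4 measured 275, 275.5, 362 and 366 CPM. Every NPY1R high library lay far above every NPY1R low library, and each value rested on at least 7866 counts. The means were 1133 ± 144 CPM (SD, n = 4) and 320 ± 51.4 CPM (SD, n = 4), a log2 change of 1.83 (SE 0.13) or 3.55-fold (edgeR adjusted p 1.64e-05). COL12A1 ranked 94 by size of rise among the 810 genes called higher.

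The summed level of the list moved with COL12A1. COL12A1 took 37.2% to 45.3% of all member counts in the NPY1R high libraries and 14.5% to 19.7% in the NPY1R low libraries. All members together took 0.270% to 0.298% of a library's counts in NPY1R high and 0.182% to 0.187% in NPY1R low, 2 ranges that do not meet. Without COL12A1 the shares were 0.159% to 0.171% and 0.149% to 0.160%, which overlap. The other 4 tested FACIT chains did not pass the threshold. They were COL9A2 at -0.08, COL16A1 at -0.14, COL14A1 at -0.47 and COL9A3 at -0.68 on the log2 scale.

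The promoters of COL12A1, COL4A5 and ITGA6 are shown because these members rose and have different roles. Each sequence is the 250 bases before the RefSeq transcription start (GRCh38.p14), read 5′ to 3′ on the strand of the gene. Capitals mark matches, on either strand, to the GC box GGGCGG, to the core ACGTG of many E-boxes and hypoxia elements, to the CCAAT box, to the TATA box written as TATAAA, and to the AP-1 site TGANTCA.
COL12A1: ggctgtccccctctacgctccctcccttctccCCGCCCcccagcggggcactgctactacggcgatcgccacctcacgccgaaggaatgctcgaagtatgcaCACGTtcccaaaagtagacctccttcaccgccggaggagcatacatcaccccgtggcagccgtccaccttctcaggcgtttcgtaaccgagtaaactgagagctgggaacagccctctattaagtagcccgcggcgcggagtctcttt
COL4A5: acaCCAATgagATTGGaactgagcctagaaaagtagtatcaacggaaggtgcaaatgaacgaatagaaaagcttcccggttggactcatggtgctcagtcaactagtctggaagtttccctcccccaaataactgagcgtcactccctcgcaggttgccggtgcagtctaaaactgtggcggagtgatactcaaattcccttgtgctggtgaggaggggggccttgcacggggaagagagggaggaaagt
ITGA6: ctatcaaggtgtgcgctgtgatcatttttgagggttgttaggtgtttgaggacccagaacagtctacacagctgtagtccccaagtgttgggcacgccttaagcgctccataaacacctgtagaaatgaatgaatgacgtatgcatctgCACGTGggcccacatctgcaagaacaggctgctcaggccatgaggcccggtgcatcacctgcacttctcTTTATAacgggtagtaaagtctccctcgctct
The COL12A1 window lies at chr6:75206054-75206303 on the minus strand, has a GC content of 61.2% and holds 21 CG dinucleotides, with GGGCGG at -218 and ACGTG at -148 from the start. The COL4A5 window, chrX:108439588-108439837 on the plus strand, has a GC content of 51.2% and 8 CG dinucleotides, with CCAAT on opposite strands at -247 and -239. The ITGA6 window, chr2:172427086-172427335 on the plus strand, has a GC content of 50.8%, an ACGTG match on each strand at -101 and -100 that overlap, and TATAAA on the other strand at -32. The windows of the other matched members differed among themselves. LAMB1, which rose, held 4 GGGCGG matches. ITGA5, which fell, held 1, at -210. ITGB6, which fell, held none of these motifs and 0 CG dinucleotides, with a GC content of 30%, the 1.63 percentile of all promoters. Of 27305 RefSeq promoters of this length, 42.3% hold GGGCGG, 33.0% CCAAT, 18.7% ACGTG, 11.1% TATAAA and 6.60% TGANTCA. Promoters were matched for 6 of the 8 called members and 34 of the 46 tested ones. Of these 34, 23 hold GGGCGG, 8 CCAAT, 4 ACGTG, 4 TATAAA and 1 TGANTCA. A match is a description of letters and not a site of binding, and gene counts do not show which start was used.

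Of the 6 chains of type IV collagen, 5 were tested and 1 passed. COL4A5, whose product joins the alpha3-alpha4-alpha5 and alpha5-alpha5-alpha6 networks, rose. It lies on chromosome X from 108439844 to 108697545. Its NPY1R high libraries measured 10.3, 10.1, 11 and 12.7 CPM and its NPY1R low libraries 4.56, 6.27, 6.41 and 5.38 CPM. Each NPY1R high library exceeded the highest NPY1R low library by more than 3 CPM. The means were 11.04 ± 1.19 and 5.66 ± 0.858 CPM (SD, n = 4 each). The log2 change was 0.96 (SE 0.14; edgeR adjusted p 0.00122). COL4A6, its head-to-head neighbour with a start 380 bp away, was too low to be tested, with 3, 3, 9 and 7 counts in NPY1R high and 1, 1, 0 and 4 in NPY1R low. COL4A3 and COL4A4, whose starts lie 419 bp apart, had log2 changes of 0.35 (SE 0.22) and 0.46 (SE 0.16; edgeR adjusted p 0.378 and 0.0924). The groups did not overlap for COL4A4, which ran from 2.71 to 3.85 CPM in NPY1R high and from 2.06 to 2.51 CPM in NPY1R low. COL4A1 and COL4A2, the chains of the common type IV network with starts 127 bp apart, had log2 changes of -0.53 (SE 0.39) and -0.61 (SE 0.27; edgeR adjusted p 0.453 and 0.183). In CPM per kb of transcript, which allows levels of different genes to be compared, COL4A5 was at 4.83 to 9.91 times the level of COL4A2 in NPY1R high libraries and 1.72 to 3.46 times in NPY1R low libraries.

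Of the fibrillar collagens, 5 of 11 were tested, 1 rose and 1 fell. COL5A2, a chain of type V collagen, which starts and limits the thickness of type I fibres, fell. Its NPY1R high libraries measured 11.4, 11.2, 11.04 and 11.1 CPM and its NPY1R low libraries 20.5, 17.7, 20.5 and 18.8 CPM. The NPY1R high libraries lay close together and all below the NPY1R low ones. The means were 11.2 ± 0.185 and 19.4 ± 1.35 CPM (SD, n = 4 each), and the level fell by 0.79 on the log2 scale (SE 0.083; edgeR adjusted p 2e-04). COL5A2 lies on chromosome 2 from 189031896 to 189225312. COL5A1, which supplies the other chains of the type V trimer, had a log2 change of -0.66 (SE 0.31) and did not pass. COL1A1 averaged 14.1 and 15.5 CPM (log2 change -0.14), beside 0 counts of COL1A2, the other chain of type I collagen.

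COL2A1, the chain of cartilage type II collagen, rose from a low level. It had 28, 35, 39 and 30 counts in NPY1R high and 18, 22, 17 and 20 in NPY1R low. In CPM these were 0.962, 1.302, 1.41 and 1.65 against 0.604, 0.771, 0.778 and 0.786, with no overlap. The log2 change was 0.84 (SE 0.23; edgeR adjusted p 0.0329). This call did not hold without NPY1R high replicate 2, 3 or 4 or NPY1R low replicate 1, 2 or 3, nor with a GC offset, and its edgeR adjusted p reached 0.094.

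No chain of the other network, beaded and anchoring collagens passed the threshold among 6 tested by edgeR's quasi-likelihood test, 2 having an unadjusted p under 0.05 and DESeq2 and limma-voom each calling 0. COL6A3 was the nearer of the 2, at 1.51 ± 0.21 against 0.891 ± 0.238 CPM (SD, n = 4 each). The log2 change was 0.76 (SE 0.24; edgeR adjusted p 0.065) and the groups did not overlap. COL6A1, a chain of the same type VI trimer, had a log2 change of 0.35 (SE 0.29) and COL6A2 one of -0.71 (SE 0.30). COL17A1, the transmembrane collagen of hemidesmosomes, had a log2 change of -0.45 (SE 0.40), and COL18A1, the source of endostatin, one of 0.18 (SE 0.31).

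**Figure D2:**
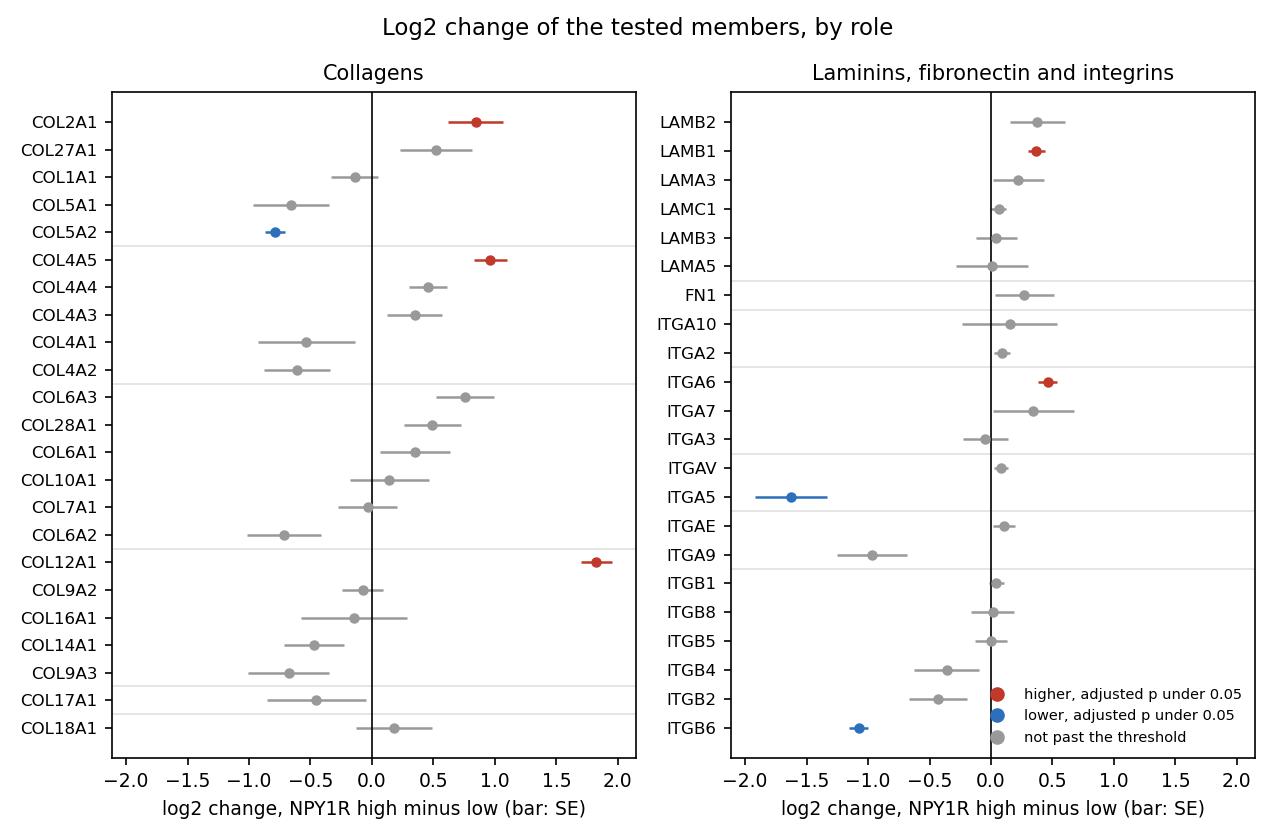
Log2 change (NPY1R high minus low) with its SE for 45 of the 46 tested members, grouped by role with lines between roles; red is higher, blue is lower and grey is not past an adjusted p of 0.05. COL12A1 stands furthest to the right at 1.83, ITGA5 furthest to the left at -1.63, and the laminin chains drawn lie between 0.01 and 0.37.

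Of 12 laminin chains, 7 were tested and 1 passed. LAMB1, the beta chain of several widespread laminins, rose. NPY1R high libraries measured 158, 155, 141 and 145 CPM and NPY1R low libraries 124, 124, 109 and 108 CPM. The lowest NPY1R high library stood above the highest NPY1R low library. The means were 150.01 ± 8.15 and 116 ± 9.15 CPM (SD, n = 4 each). The log2 change was 0.37 (SE 0.068) or 29.1% above the NPY1R low mean (edgeR adjusted p 0.00515). LAMB1 lies on chromosome 7 from 107923799 to 108003255, and DLD overlaps it on the other strand. DLD averaged 262 and 272 CPM (log2 change -0.06, edgeR adjusted p 0.718). Whether the counting used strand is not given in the sources used here, and without it reads of overlapping genes cannot be told apart.

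The chains with which LAMB1 forms trimers did not pass. LAMC1, the gamma chain most often found with it, measured 103 ± 5.26 and 98.6 ± 6.50 CPM (SD, n = 4 each; log2 change 0.06, SE 0.063). LAMA5, an alpha chain of epithelial basement membranes, measured 17.3 ± 4.81 and 17.1 ± 5.90 CPM (SD, n = 4 each; log2 change 0.01, SE 0.29). LAMB2, which takes the place of LAMB1 in other trimers, measured 68.5, 60.4, 41.9 and 59.4 CPM in NPY1R high and 52.9, 57.5, 40.0 and 26.9 CPM in NPY1R low. Its groups overlapped, and NPY1R low replicate 4 was its lowest library. The log2 change of 0.37 (SE 0.22) had an edgeR adjusted p of 0.344, and 0.0445 with an offset for GC content. LAMA3 and LAMB3, chains of a laminin bound by hemidesmosomes, had log2 changes of 0.22 (SE 0.21) and 0.04 (SE 0.17) and did not pass. In CPM per kb, LAMB1 stood highest of the laminins at 26.2 in NPY1R high and 20.3 in NPY1R low, followed by LAMC1 at 13.0 and 12.5 and LAMB2 at 10.1 and 7.81. LAMB1 per LAMC1 was 1.89 to 2.08 in NPY1R high libraries and 1.38 to 1.86 in NPY1R low libraries, 2 ranges that do not overlap. LAMB1 per LAMB2 was 2.29 to 3.34 and 2.14 to 3.97, which do. Both ratios reuse the LAMB1 values above and are not separate evidence.

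FN1, the gene of fibronectin, a soluble and fibre-forming protein bound by several integrins, was low, with 26 to 50 counts in a library. It measured 0.962, 1.86, 1.81 and 1.43 CPM in NPY1R high and 1.07, 1.37, 1.42 and 1.18 CPM in NPY1R low. The groups overlapped and the log2 change of 0.27 (SE 0.24) had an edgeR adjusted p of 0.545.

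Among the integrins, ITGA6 rose while ITGB6 and ITGA5 fell, out of 15 tested of 26. ITGA6 is the alpha chain of the laminin receptors alpha6-beta1 and alpha6-beta4, the second being the integrin of hemidesmosomes. Its NPY1R high libraries measured 89.6, 90.1, 107 and 107 CPM and its NPY1R low libraries 69.0, 69.7, 70.1 and 77.1 CPM. NPY1R low replicate 4, the highest of its group, lay below every NPY1R high library. The means were 98.5 ± 10.02 and 71.5 ± 3.79 CPM (SD, n = 4 each). The log2 change was 0.46 (SE 0.078; edgeR adjusted p 0.0031). ITGA6 lies on chromosome 2 from 172427354 to 172506282, and 3 annotated genes on the other strand overlap it.

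The partners of ITGA6 did not pass. ITGB1, the beta chain shared by most matrix-binding integrins, measured 613, 611, 669 and 594 CPM in NPY1R high and 578, 583, 589 and 662 CPM in NPY1R low. The groups overlapped, with a log2 change of 0.04 (SE 0.063; edgeR adjusted p 0.733). ITGB4 measured 23.7, 20.1, 13.4 and 20.3 CPM in NPY1R high and 30.3, 31.2, 25.1 and 12.6 CPM in NPY1R low. Here NPY1R low replicate 4 lay below every NPY1R high library while the other 3 lay above them all. The log2 change was -0.36 (SE 0.27; edgeR adjusted p 0.457), and -0.55 (edgeR adjusted p 0.0407) when NPY1R low replicate 4 was left out. With all libraries and an offset for GC content it was -0.30 (edgeR adjusted p 0.156). In CPM per kb, ITGA6 per ITGB1 was 0.0984 to 0.121 in NPY1R high and 0.0784 to 0.0805 in NPY1R low, which do not overlap. ITGA6 per ITGB4 was 3.98 to 8.47 and 2.35 to 6.42, which do. These ratios reuse the ITGA6 values above and are not separate evidence.

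ITGB6 had the lowest adjusted p of the 3 members that fell. It is found mainly in epithelia and pairs with ITGAV to form alphav-beta6, which binds fibronectin and the latent form of TGF-beta and can activate the latter. NPY1R high libraries measured 14.2, 14.5, 13.3 and 13.1 CPM and NPY1R low libraries 28.5, 30.2, 26.9 and 30.6 CPM. Every NPY1R high library lay more than 10 CPM below every NPY1R low library, and the spread within each group was small beside that gap. The means were 13.8 ± 0.667 and 29.05 ± 1.69 CPM (SD, n = 4 each), and ITGB6 fell by 1.08 on the log2 scale (SE 0.078; edgeR adjusted p 2.11e-05). It lies on chromosome 2 from 160099666 to 160200313 on the minus strand, where the annotated gene AC092153.1 overlaps it on the same strand.

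The alpha chain and the other beta chains of ITGAV did not pass. ITGAV measured 158 ± 9.08 and 149 ± 7.30 CPM (SD, n = 4 each; log2 change 0.08, SE 0.059). ITGB5, the beta chain of the vitronectin receptor alphav-beta5, measured 75.2 ± 6.89 and 75.1 ± 14.3 CPM (SD, n = 4 each), and ITGB8 5.41 ± 1.21 and 5.34 ± 0.582 CPM (SD, n = 4 each). ITGB3, another partner of ITGAV, had at most 3 counts in a library. In CPM per kb, ITGAV per ITGB6 was 7.38 to 7.80 in NPY1R high and 3.22 to 3.68 in NPY1R low. ITGB6 per ITGB5 was 0.160 to 0.185 and 0.315 to 0.478. Neither ratio overlapped between groups, which restates the fall of ITGB6 beside flat partners and is not separate evidence.

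ITGA5, the alpha chain of the fibronectin receptor alpha5-beta1, fell from a level already low. It had 6, 6, 6 and 8 counts in NPY1R high and 28, 21, 16 and 21 in NPY1R low, and passed the filter through the NPY1R low libraries. In CPM these were 0.206, 0.223, 0.217 and 0.441 against 0.940, 0.736, 0.732 and 0.825. The groups did not overlap, although NPY1R high replicate 4 was close to 2 times its neighbours. ITGA5 fell by 1.63 on the log2 scale (SE 0.29; edgeR adjusted p 0.00457). A minimum of 1 CPM in 4 libraries, or of 10 counts in every library, removed it from the test.

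The remaining integrins with a level to speak of did not pass. ITGA3, another laminin receptor chain, measured 156 ± 27.8 and 161 ± 39.3 CPM (SD, n = 4 each; log2 change -0.05, SE 0.18), a difference whose sign turned with upper-quartile scaling, with a GC offset, and without NPY1R high replicate 3, NPY1R low replicate 1 or NPY1R low replicate 2. ITGA2, which binds collagen with ITGB1, measured 30.9 ± 1.39 and 29.1 ± 0.779 CPM (SD, n = 4 each). Its groups did not overlap, but the log2 change was 0.09 (SE 0.064; edgeR adjusted p 0.454). ITGA9, a chain that binds tenascin C, had 9, 6, 7 and 3 counts against 17, 13, 10 and 11. Its log2 change of -0.97 (SE 0.29) had an edgeR adjusted p of 0.0513, and like ITGA5 it passed the filter through the NPY1R low libraries. ITGAL, the alpha chain of the leukocyte integrin LFA-1, was chosen after its values were seen. It had 1, 1, 1 and 4 counts in NPY1R high and 7, 14, 15 and 17 in NPY1R low, groups that do not overlap, and was not tested because the counts were too few. With no filter its log2 change was -2.74. No p-value is given for it, because a gene picked for its difference cannot be tested on the same values.

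In CPM per kb, ITGB1 stood highest of the integrin chains at 164 in NPY1R high and 159 in NPY1R low. ITGA3 at 32.0 and 33.0, ITGAV at 22.4 and 21.2, ITGA6 at 17.5 and 12.7 and ITGB5 at 17.2 in both followed. ITGA6 and ITGB5 overlapped over libraries in both groups, as did ITGB5 and ITGAV in NPY1R low. Lower down, ITGB6 at 2.95 overlapped ITGB4 at 3.27 in NPY1R high, and at 6.21 lay above ITGB4 at 4.19 in NPY1R low with no overlap.

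**Figure D3:**
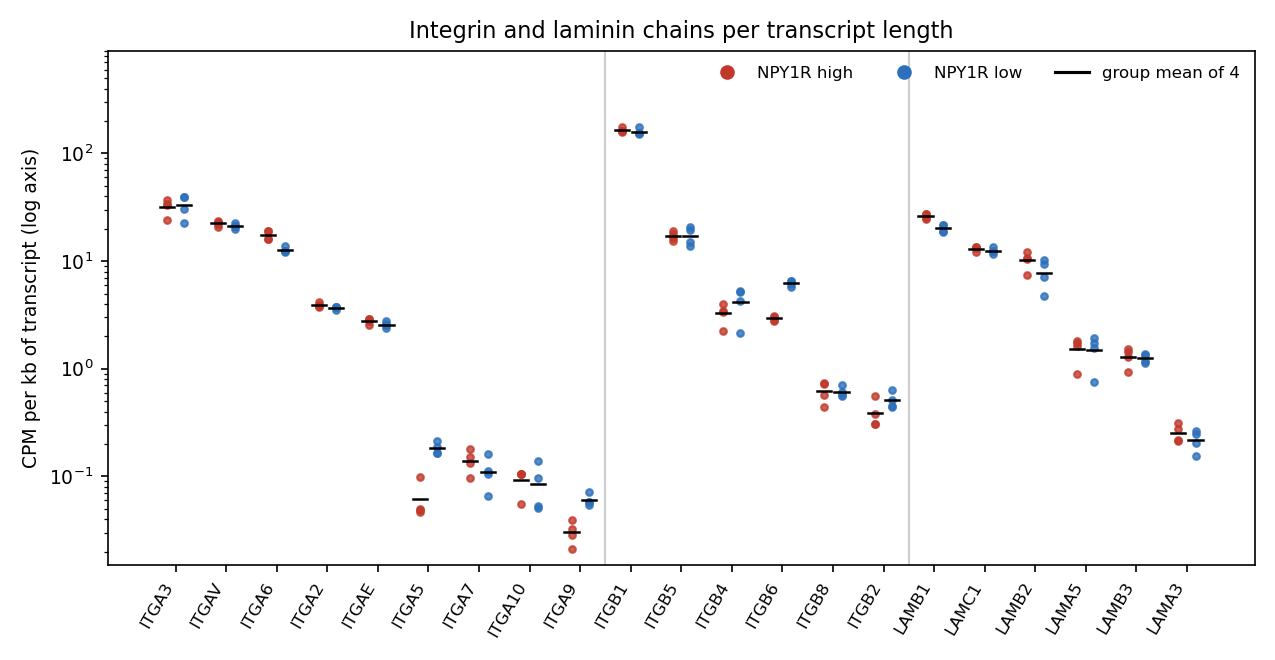
CPM per kb of transcript on a log axis for the tested integrin alpha and beta chains and 6 of the 7 tested laminin chains, with each library as a point and the mean of 4 as a bar. ITGB1 stands highest in both groups at 164 and 159, and ITGB6 and ITGA5 are the chains with lower points in NPY1R high that do not meet those of NPY1R low and passed the threshold.

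The genes that modify, anchor or signal with these proteins were read from a list of 97, of which 96 were in the table and 77 tested. By edgeR's quasi-likelihood test 11 were higher (14.3%) and 8 lower (10.4%), against 5.78% and 7.81% of all tested genes, with a median log2 change of -0.03. The count of lower genes was not stable. It was 2 to 4 without any 1 library other than NPY1R low replicate 4, and 9 without that library. With all 8 libraries it was 4 with library totals, 4 with a minimum of 1 CPM, 3 with a minimum of 10 counts everywhere, 5 with limma-voom, and 4 or 6 with any other TMM reference.

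Of the collagen-modifying enzymes, 1 of 20 rose and 3 fell. LOXL4, a lysyl oxidase that crosslinks collagen and elastin, rose from 57.4 ± 11.5 to 112 ± 35.8 CPM (SD, n = 4 each; log2 change 0.97, SE 0.22, adjusted p 0.0164). LOX, the founding member of that family, fell by 1.09 on the log2 scale from 1.74 to 0.808 CPM (SE 0.26, adjusted p 0.0207). P4HA1, a subunit of the prolyl hydroxylase that stabilises the triple helix, fell by 0.64 from 74.0 ± 14.2 to 47.4 ± 3.50 CPM (SD, n = 4 each; SE 0.13, adjusted p 0.00831). PLOD1, a lysyl hydroxylase, was the third (log2 change -0.33, adjusted p 0.0482), and passed in 8 of 29 refits. LOX passed in 23 of 29. These and the following adjusted p-values are from the same edgeR test.

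Of 14 tested genes of basement membranes and other matrix, 4 rose and 4 fell. THBS1, thrombospondin 1, a matrix protein that binds CD47 and several integrins, rose from 97.3 ± 6.10 to 314 ± 29.5 CPM (SD, n = 4 each; log2 change 1.69, SE 0.077, adjusted p 1.24e-06). FREM2, a basement membrane protein of the Fraser complex, rose from 128 ± 7.69 to 307 ± 41.3 CPM (SD, n = 4 each; log2 change 1.26). NTN4, a netrin that binds laminin, rose by 1.65 from 0.720 to 2.29 CPM, and THBS3 rose by 0.36. The 4 that fell were FBLN5 by 1.60, ECM1 by 1.00, FBLN1 by 0.88 and SMOC2 by 0.52, of which FBLN1 and ECM1 had overlapping groups. FBLN5 was low, at 0.455 and 1.41 CPM on average in NPY1R high and low, with 13, 9, 18 and 7 counts in NPY1R high. It passed in all 28 refits that tested it, and a minimum of 10 counts in every library removed it from the test. FBLN1 passed in 23 of 29, ECM1 in 16 of 29 (adjusted p up to 0.137) and SMOC2 in 7 of 29 (up to 0.173). THBS3 passed in 24 of 29.

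Of 15 tested receptors and membrane partners, 3 rose and none fell, 5 having an unadjusted p under 0.05 in either direction by edgeR and DESeq2 and limma-voom calling 4 and 3. SDC2, the heparan sulphate proteoglycan syndecan 2, rose from 38.5 ± 1.85 to 175 ± 31.9 CPM (SD, n = 4 each; log2 change 2.19, SE 0.12, adjusted p 4.55e-06). CD47, a membrane protein that associates with integrins and binds thrombospondin 1, rose from 78.3 ± 2.45 to 154 ± 7.80 CPM (SD, n = 4 each; log2 change 0.98, SE 0.054, adjusted p 4.7e-06). SDC4 rose by 0.28. Among 28 adhesion proteins inside the cell, 3 rose and 1 fell. FERMT1 and FERMT2, kindlins that bind the tails of integrin beta chains and help activate them, rose by 1.56 and 0.63 to 6.53 and 24.7 CPM. NEDD9, a scaffold at focal adhesions, rose by 0.82 to 46.8 CPM, and RAP1GAP, which switches off Rap1, fell by 0.72 with overlapping groups and passed in 15 of 29 refits (adjusted p up to 0.126).

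**Figure D4:**
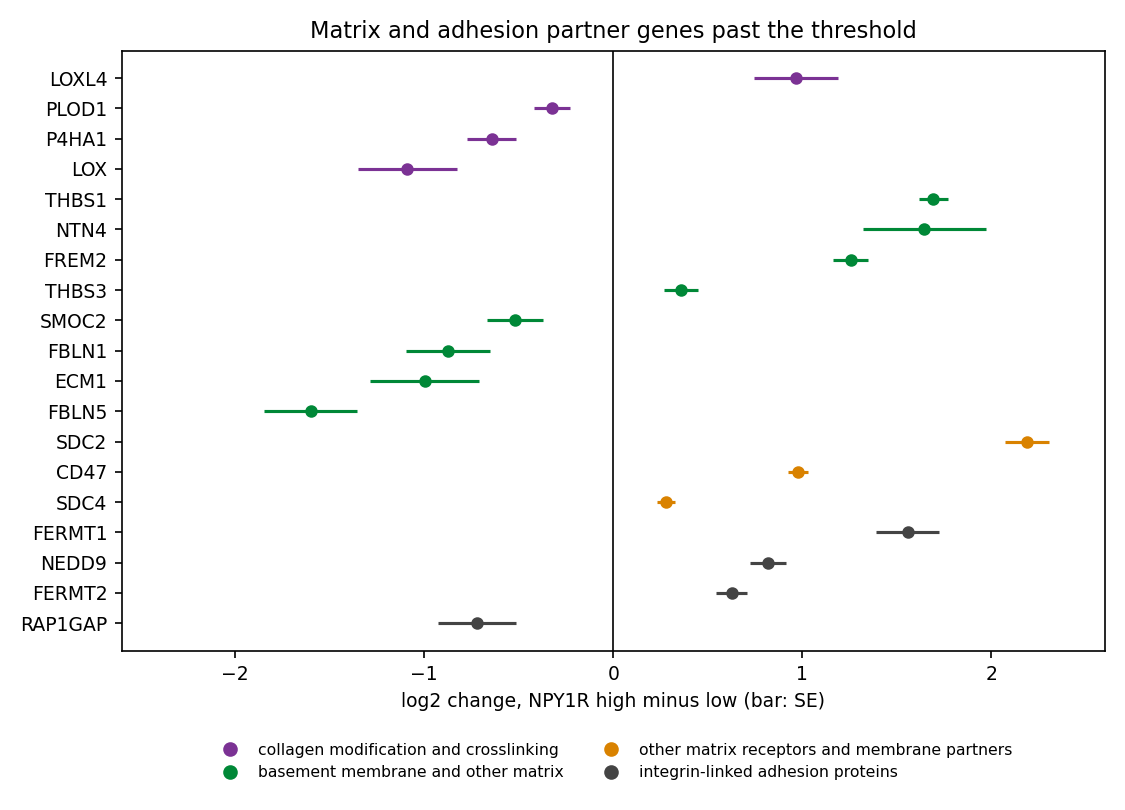
Log2 change (NPY1R high minus low) with its SE for the 19 partner genes past the adjusted p of 0.05, coloured by class. SDC2 and THBS1 lie furthest to the right at 2.19 and 1.69, and FBLN5 furthest to the left at -1.60.

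The transcript GC content of a member moved with its level within each group in some libraries. Over the 46 tested members, Spearman's rho between a member's GC content and its deviation from the group mean was 0.51, -0.0014, -0.49 and 0.23 in NPY1R high replicates 1 to 4, and 0.43, 0.52, 0.12 and -0.60 in NPY1R low replicates 1 to 4. The points share a library and are given as a description. The 17 members with at least 60% GC had a median log2 deviation of -0.40 in NPY1R high replicate 3 and of -0.66 in NPY1R low replicate 4. LAMB2, LAMA5, ITGB4 and COL18A1 were among those low in NPY1R low replicate 4. Several fits bear on these libraries and on GC content. With an offset for GC content 6 members were higher and 4 lower, adding COL6A2, COL6A3 and LAMB2 and dropping COL2A1. With the offset and a replicate block 7 were higher and 3 lower, adding COL6A3 and LAMB2. Without NPY1R high replicate 3 alone 4 were higher and 4 lower, adding ITGAL and dropping COL2A1. ITGAL, picked after its values were seen, did not pass the filter with all 8 libraries and entered because the filter was applied again. It was also added without NPY1R high replicate 1, 2 or 4, or without NPY1R low replicate 1. Its entry is thus not particular to NPY1R high replicate 3, and no weight is placed on it. Without NPY1R low replicate 4 alone 5 were higher and 4 lower, adding ITGB4. With NPY1R high replicate 3 and NPY1R low replicate 4 both left out, 4 were higher and 4 lower, adding ITGB4 and dropping COL2A1. In that fit COL12A1 and ITGB6 had log2 changes of 1.94 and -0.998.

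**Figure D5:**
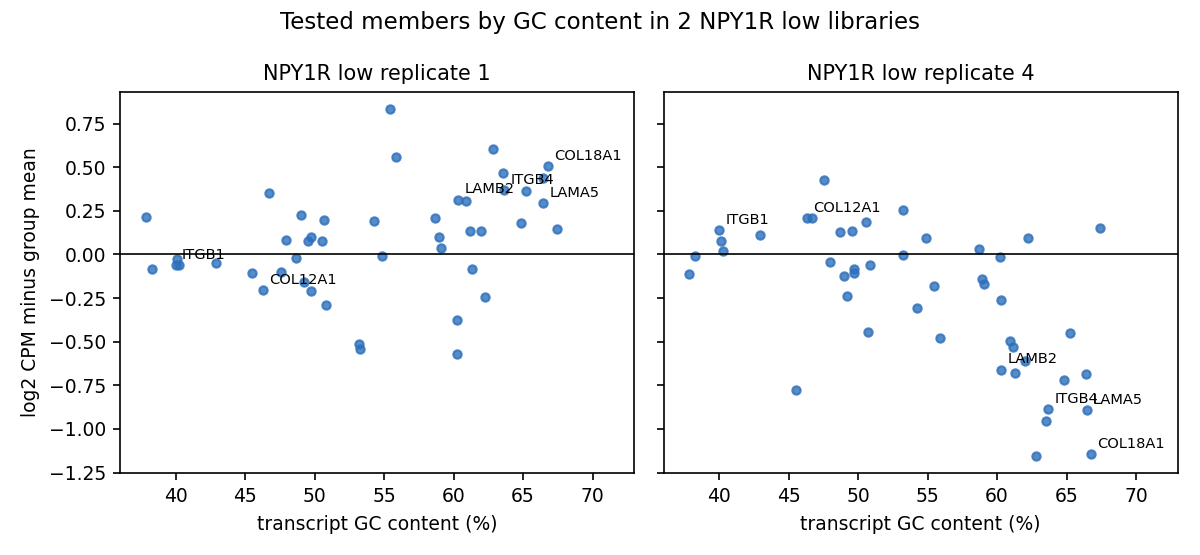
Log2 CPM minus the mean of the NPY1R low group against transcript GC content for the 46 tested members in NPY1R low replicates 1 and 4, each point a member. GC-rich members such as LAMB2, ITGB4, LAMA5 and COL18A1 lie above 0 in replicate 1 and below 0 in replicate 4, where rho was 0.43 and -0.60.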

How the data were processed

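RNA was sequenced from 8 BT474 libraries, 4 labelled NPY1R high and 4 NPY1R low. The authors deposited estimated counts per gene, without scaling. They are expected counts, since 7.97% to 8.76% of each library's values were fractional. The series table and the single tables differed in 0 values. The submitters' processing notes name STAR 2.5.2, RSEM 1.3.0 and hg38 without their roles; the annotation is not given in the sources used here. The design named counts, with expected counts to be rounded to whole numbers, and they were rounded.

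Genes were filtered with filterByExpr (minimum count 10), leaving 14008 of 26475, scaled by TMM and compared with edgeR's quasi-likelihood test without covariates, with Benjamini-Hochberg adjustment over all tested genes at 0.05 (R 4.3.3, edgeR 4.0.16, limma 3.58.1, DESeq2 1.42.0). Transcript lengths, GC content and positions came from GENCODE release 29 (GRCh38), and all 83 members had a length. The procedure was tested on simulated data. Chi-square per degree of freedom ran from 5.75 to 62.3 over the 12 same-group pairs, above sampling noise. Reads were counted without molecular identifiers and are not independent molecules. The biological coefficient of variation was 13.6%.

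The members and gene lists were chosen with earlier results of these data known. Named were NPY1R, members with an adjusted p under 0.05, tested members with a mean of at least 20 CPM, ITGB1, ITGB4, ITGA6, ITGAV and FN1, and partner genes past 0.05 with an absolute log2 change of at least 0.5. Values of 1 tested member are not reported here. Other named genes were picked with their values in view. Alternatives were other scalings, TMM references and filters, limma-voom, DESeq2, a replicate block, robust shrinkage, a GC offset, a term for replicates 1 and 2 against 3 and 4, a stricter threshold and left-out libraries. Leaving out NPY1R high replicate 3 and NPY1R low replicate 4 together was added after seeing the data.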

Additional observations from a re-analysis of the deposited data

Results flagged for a closer look

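For 18 named genes in 2 groups, the 4 libraries of a group were searched for 1 that stood far from the other 3 (Dixon's test at 95%). This found 6 of 36 group values, where chance gives about 1 in 20, or 1.8. ITGA5 was highest in NPY1R high replicate 4, at 0.441 CPM against 0.206 to 0.223 in the other 3. LAMC1 was lowest in NPY1R high replicate 3, at 95.1 CPM against 105 to 106. In NPY1R low replicate 4, ITGA6 was highest at 77.1 CPM against 69.0 to 70.1, and ITGB1 was highest at 662 CPM against 578 to 589. In NPY1R low replicate 1, ITGA2 was lowest at 27.9 CPM against 29.4 to 29.6, and COL2A1 was lowest at 0.604 CPM against 0.771 to 0.786.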

How the results depend on the processing

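Over 24 results and 30 alternatives, 699 values were recomputed, and 654 kept their direction and their side of the threshold or, for counts, stayed within 1.5 times. COL12A1, COL4A5, COL5A2, ITGA6, ITGB6 and LAMB1 passed in all 29 refits. ITGA5 passed in the 27 in which it was tested, and the stricter filters removed it. It passed the main filter through the NPY1R low libraries, so these refits add no separate support for its fall. Members called higher ranged from 4 to 7 and lower from 2 to 5, the 5 coming from a fit with replicates 1 and 2 set against 3 and 4, adding COL17A1 and ITGA9. With the replicate block the members gave 5 higher and 3 lower. The deviations of same-numbered libraries had correlations of 0.34, 0.16, 0.09 and 0.02 over all tested genes in replicates 1 to 4. Over the members these were 0.41, -0.09, -0.13 and -0.18, so the numbers are not taken to pair the samples. The sample numbers in the column names alternate between NPY1R low and NPY1R high by replicate, and the labels do not say why. Partner genes called lower numbered 4 with library totals, 4 with a minimum of 1 CPM, 3 with a minimum of 10 counts everywhere, 5 with limma-voom, 4 with either of NPY1R low replicates 1 and 2 as TMM reference, 2 at an adjusted p of 0.01 and 2 to 9 with 1 library left out. They numbered 9 with DESeq2, 10 with the replicate term, 11 with the GC offset and 12 with block and offset. Over all genes the lower calls numbered 1784 with the block and GC offset, 1681 with the replicate term and 625 to 1064 with 1 library left out, and at 0.01 there were 470 higher and 562 lower. The share of all calls that were higher was 42.5%, and 56.3% with upper-quartile factors, while the members stayed at 5 and 3. The main fit took NPY1R low replicate 4 as TMM reference, and with any other library the share was 49.5% to 53.1%. ITGA3 turned to 0.011 with upper-quartile factors, 0.0011 with the GC offset and 0.00031 with block and offset, and ran from -0.15 to 0.10 with 1 library left out. ITGB5 ran from -0.059 to 0.098 and was -0.01 without NPY1R high replicate 3 and NPY1R low replicate 4. The cause was not tested. FN1, COL2A1, ITGA5 and ITGA9 had at most 50 counts in a library, and depth as a limit on them was not tested.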
